A study of Homo sapiens with 6 samples.

Results

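Amino acid transporter genes were followed in RNA-seq of MDA-MB-231 cells after silencing of ZNF148. The members are the rows named for a gene of the solute carrier (SLC) families SLC1, SLC3, SLC6, SLC7, SLC36, SLC38 or SLC43, with SLC7A11 left out, which gave 58 rows of 24108 in the deposited table. They were picked out by gene name, but the families were chosen with earlier results of these data known. Of these, 24 had a mean of at least 1 FPKM (fragments scaled to transcript length and to the size of the library) over the 6 samples and were tested, or 41.4% of the members against 48.9% of all rows.

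MDA-MB-231, a long-established line of triple-negative breast cancer, is classed as Basal in the labels. The 3 shCtr samples carried a lentiviral LKO short hairpin against luciferase and the 3 shZNF148 samples carried shZnf148, so both groups had been infected and selected. RNA was taken after 48 h of transduction and 24 h in 0.5 micrograms/mL puromycin. The labels do not say how many ZNF148 hairpins were used, nor whether the 3 repeats of a group came from separate cultures, so the p-values measure only the spread between these samples, which may be technical.

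SLC proteins carry amino acids across the plasma membrane and the membranes of organelles. Exchangers such as SLC7A5 bring in leucine and other large neutral amino acids and send another amino acid out, and they reach the cell surface only when bound to the heavy chain SLC3A2. Sodium-coupled carriers such as SLC38A1 and SLC38A2 concentrate glutamine and other small neutral amino acids, while carriers on lysosomes, among them SLC38A7, SLC38A9 and SLC36A1, link the amino acids freed there to the growth kinase complex mTORC1.

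ZNF148 itself, the target of the hairpin, was at 3.72, 4.36 and 4.30 FPKM in shCtr replicates 1, 2 and 3. It was at 0.914, 0.282 and 0.834 FPKM in shZNF148 replicates 1, 2 and 3. The groups did not overlap, and shZNF148 was at 16.4% of the shCtr mean (log2 fold change -1.63, SE 0.18, adjusted p = 0.0099, limma). Fold changes are differences of log2(FPKM + 1), which understate the change of low genes, and p-values were adjusted over all 11777 rows tested. Calls needed an adjusted p below 0.05 and a change past 1.5-fold, and the adjusted p alone served as a second rule. In such bulk samples, less RNA per cell and fewer cells that make it cannot be told apart. The exact two-sided permutation test over 3 against 3 samples cannot go below 0.1, so it can pass no threshold here.

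The MDA-MB-231 markers VIM, CD44, AXL, CAV1, ZEB1 and LOX were all present, with VIM between 1507 and 1842 FPKM. CD44, AXL and LOX fell by the adjusted p, and the 6 markers summed to between 2930 and 3060 FPKM in shCtr and to between 2440 and 2520 FPKM in shZNF148. Of the 7 luminal markers matched, ESR1 and TFF1 were listed at 0 in every sample and PGR, FOXA1 and CDH1 stayed at 0.491 FPKM or less, but GATA3 (7.53 to 9.24 FPKM) and EPCAM (7.996 to 11.1 FPKM) were present, and the 7 summed to between 17.8 and 20.1 FPKM in shCtr and to between 16.5 and 20.4 FPKM in shZNF148. Of 4 leukocyte markers, only LYZ was tested and it was called higher: the 4 summed to between 0.593 and 0.927 FPKM in shCtr and to between 2.23 and 4.97 FPKM in shZNF148, with PTPRC at 0.115 FPKM or less throughout. The part of these marker shifts in the results below was not tested. The summed FPKM per sample ran from 497730 to 507312 in shCtr and from 469594 to 488173 in shZNF148, so every shZNF148 total was lower. The steps between low values put the relative depth at 0.806 to 1.13 of shCtr replicate 1. Read numbers are unknown. shZNF148 replicate 2 stood apart: it was the shZNF148 sample farthest from shCtr in 15 of 24 tested members (62.5%) and in 50.3% of all rows tested, so rows in which it lay far from the other shZNF148 samples are also given without it.

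Most members were silent or nearly so. Of the 34 below 1 FPKM on average, 15 were listed at 0 in all 6 samples and 19 were above 0 somewhere. In the SLC6 family, which holds the neurotransmitter carriers, 3 of 19 rows were tested. The glutamate and neutral amino acid family SLC1 had 4 of 7 rows tested, SLC7 had 5 of 12, SLC38 had 6 of 11, SLC36 had 2 of 4, SLC3 had 1 of 2 and SLC43 had all 3. Only SLC38A4 among the rows below the filter reached 1 FPKM in any sample, and the next highest value was 0.453 FPKM, for the cystine and cationic amino acid exchanger SLC7A9 in shCtr.

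**Figure D1:**
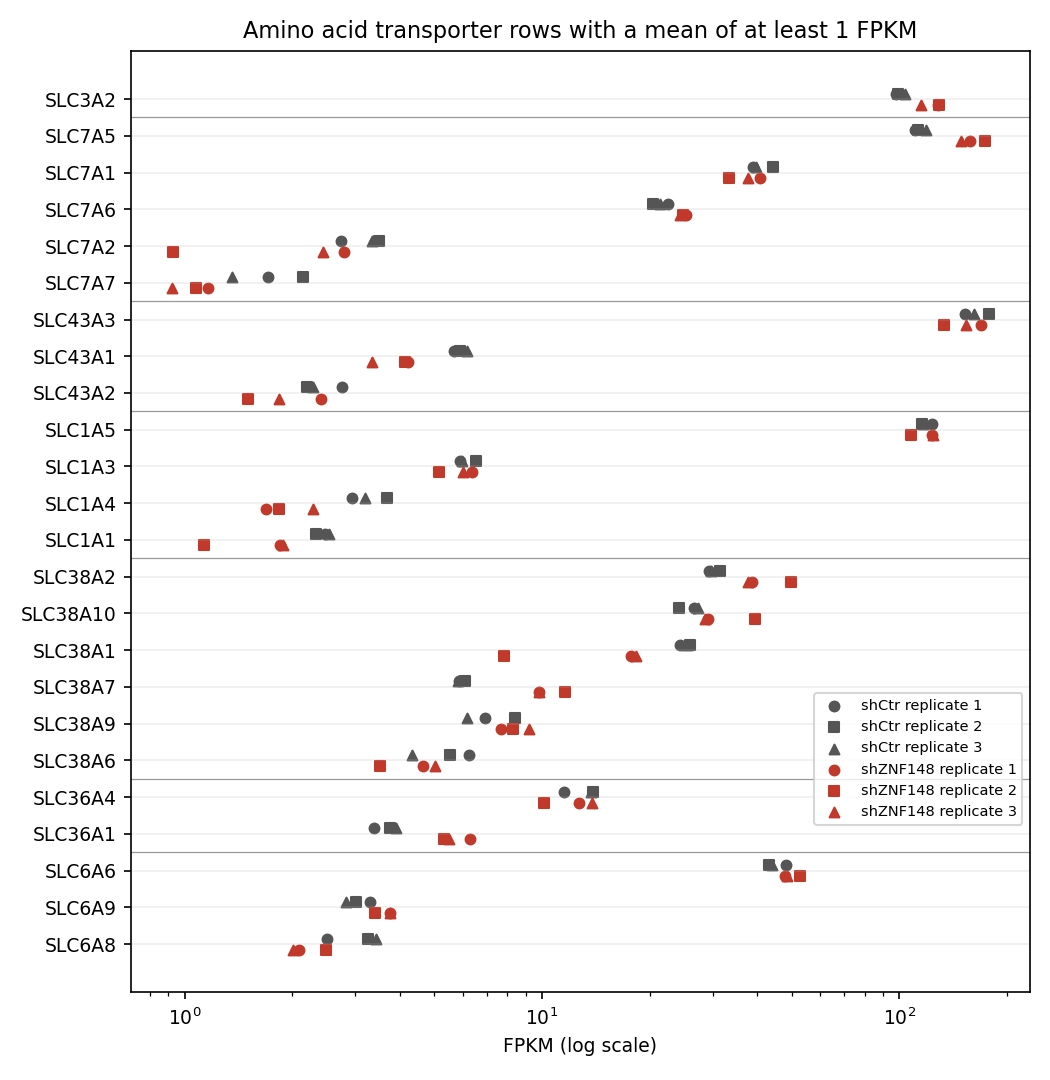
FPKM on a log axis of the 24 tested transporter rows in each of the 6 samples, grouped by family, with shCtr in grey and shZNF148 in red and a symbol for each replicate number. SLC43A3, SLC7A5, SLC1A5 and SLC3A2 average above 100 FPKM, and 13 rows average 10 FPKM or less.

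Transcripts of a few carriers made up most of the total. On the FPKM scale, which is per length, 4 rows were above 100 on average and 11 were above 10, while 13 were between 1 and 10. The 5 highest were SLC43A3, SLC7A5, SLC1A5, SLC3A2 and SLC6A6, and together they held between 71.6% and 73.9% of the summed member FPKM in every sample. That sum was 740.2, 766.1 and 754.7 FPKM in shCtr and 846.3, 815.1 and 805.8 FPKM in shZNF148. All 3 shZNF148 sums lay above all 3 shCtr sums, while the sums over all rows lay the other way round.

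One member, SLC38A7, was called higher with shZNF148 and 0 were called lower by limma (at an unadjusted p under 0.05, 6 were higher and 6 lower). The 1 called is 4.17% of the 24 tested members, beside 1.83% of all rows called higher and 3.66% called lower. By the adjusted p alone 5 members rose (SLC38A7, SLC7A5, SLC3A2, SLC36A1 and SLC38A2) and 2 fell (SLC43A1 and SLC1A4), and 17 did not pass. The 5 are 20.8% of the tested members, against 5.46% of all rows tested. The 2 are 8.33%, near the 8.13% of all rows. The groups did not overlap in 8 members that were higher with shZNF148 (33.3%, all rows 20.0%) and in 6 that were lower (25.0%, all rows 21.0%). The log2 fold change was above 0 in 10 members and below 0 in 14, with a median of -0.08 beside 0.01 for all rows tested, and the median size of the change, whatever its sign, was 0.30 beside 0.19.

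**Figure D2:**
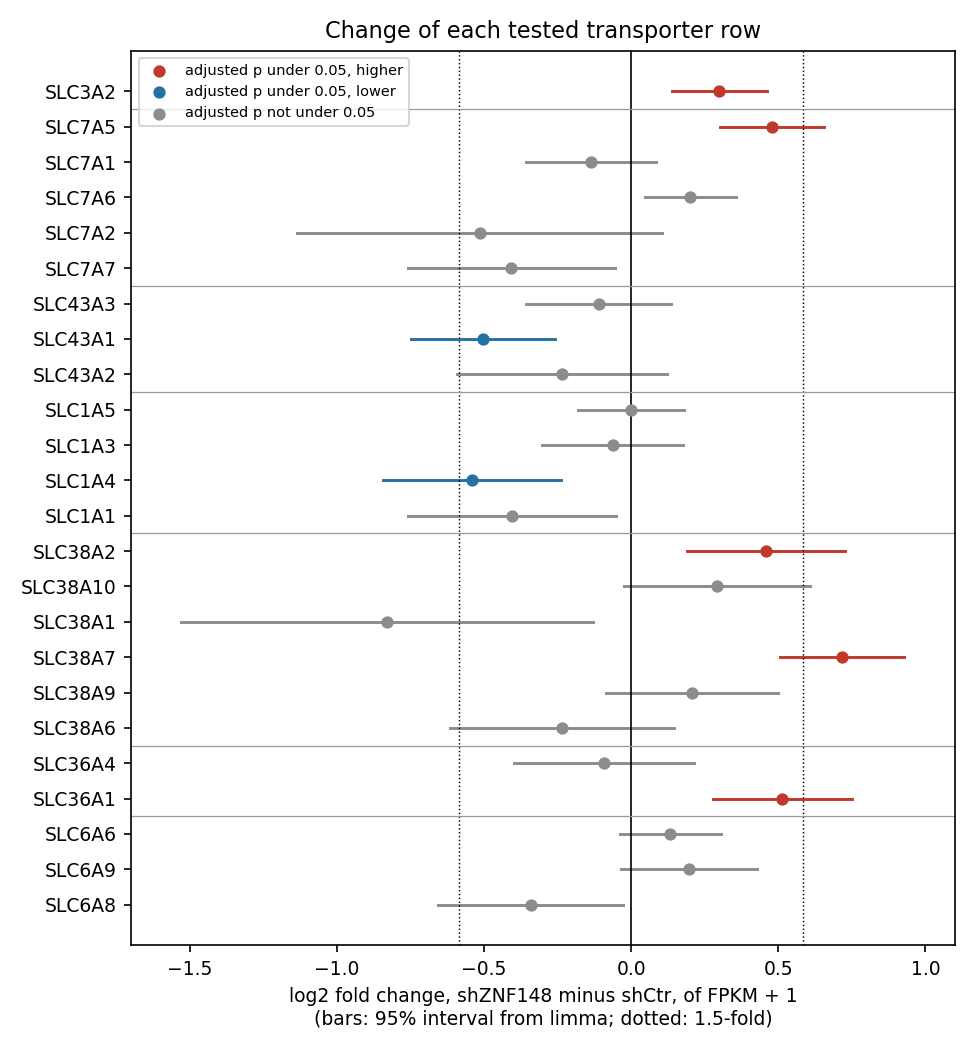
Log2 fold change of FPKM + 1, shZNF148 minus shCtr, of the 24 tested transporter rows, with 95% intervals from limma and dotted lines at 1.5-fold. The 5 red rows (adjusted p under 0.05, higher) lie between 0.30 and 0.72 and the 2 blue rows (lower) at -0.50 and -0.54. SLC38A1, at -0.83, has the widest interval and is grey.

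The leucine exchanger and its heavy chain were both higher with shZNF148. SLC7A5, also known as LAT1, was at 110.6, 112.6 and 118.9 FPKM in shCtr and at 157.0, 173.3 and 148.3 FPKM in shZNF148. The lowest shZNF148 sample was above the highest shCtr sample. On average 114.0 ± 4.34 FPKM (SD, n = 3) became 159.5 ± 12.7 FPKM, 1.399-fold, and the log2 fold change was 0.48 (SE 0.07, 95% interval 0.30 to 0.66, adjusted p = 0.0177, limma). SLC3A2, the CD98 heavy chain, was at 98.0, 98.8 and 103.9 FPKM in shCtr and at 128.2, 128.6 and 114.6 FPKM in shZNF148. Here too the groups did not overlap, though shZNF148 replicate 3 lay closer to shCtr than the other two. Means were 100.2 ± 3.17 and 123.8 ± 7.99 FPKM, 1.24-fold (log2 fold change 0.30, SE 0.07, 95% interval 0.14 to 0.46, adjusted p = 0.0370). There were 1.13, 1.14 and 1.14 SLC7A5 FPKM for each SLC3A2 FPKM in shCtr and 1.22, 1.35 and 1.29 in shZNF148, so this ratio was higher in every shZNF148 sample. The pseudogenes SLC7A5P1 and SLC7A5P2, with which reads could be shared, stayed at 0.336 FPKM or less.

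The 3 letter strings searched in the promoters were CCCCNCCCC, a C-rich run of the kind that ZNF148 is known to bind, the GC-box GGGCGG, and TGATGNAAN, the C/EBP-ATF response element through which ATF4 acts on many amino acid genes. Both strands were searched, and a run of the form CCCCGCCCC also holds a GC-box. Each promoter window is 270 bases of the RefSeq sequence (build GRCh38.p14), from 250 bases before the start site to 20 from it, and 20 of the 24 tested members matched such a window. The promoters of SLC7A5 and SLC3A2 are shown because these partners were higher together, with matches to CCCCNCCCC on either strand in capitals.
SLC7A5, chr16:87869488-87869757, minus strand: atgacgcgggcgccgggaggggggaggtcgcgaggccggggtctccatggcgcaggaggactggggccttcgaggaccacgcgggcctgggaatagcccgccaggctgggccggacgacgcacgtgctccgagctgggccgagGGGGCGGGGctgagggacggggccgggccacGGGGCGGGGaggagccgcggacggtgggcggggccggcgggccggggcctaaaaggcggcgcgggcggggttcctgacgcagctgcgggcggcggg
SLC3A2, chr11:62880646-62880915, plus strand: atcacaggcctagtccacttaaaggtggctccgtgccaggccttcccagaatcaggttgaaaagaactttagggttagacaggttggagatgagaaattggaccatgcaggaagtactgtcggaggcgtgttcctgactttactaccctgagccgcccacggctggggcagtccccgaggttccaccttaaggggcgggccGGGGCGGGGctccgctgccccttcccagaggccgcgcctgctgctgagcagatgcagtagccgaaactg
SLC7A5 held 2 such runs, 107 and 76 bases before the start site, and SLC3A2 held 1, 49 bases before it. Runs of this form were in 7 of the 20 members (35.0%) and in 32.8% of all 16347 promoter windows, so the members were near the background. The members are expressed genes, while the windows were not filtered for expression.

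The other light chains of SLC3A2 that were tested here, SLC7A6 and SLC7A7, did not pass. SLC7A11 is not among the members. SLC7A6 (y+LAT2), which exchanges cationic for neutral amino acids, was at 20.5 to 22.5 FPKM in shCtr and at 24.3 to 25.3 FPKM in shZNF148. Its groups did not overlap, but the log2 fold change of 0.20 had an adjusted p of 0.0813. The gene overlaps SLC7A6OS on the opposite strand, by 3372 bases in the exon pair that overlaps most (GENCODE annotation). SLC7A6OS itself had a log2 fold change of -0.09 (adjusted p = 0.466). The strand setting of the library is not given in the sources used here, so reads of the overlap cannot be told apart. SLC7A7 (y+LAT1), a low row, was at 1.72, 2.15 and 1.36 FPKM in shCtr and at 1.16, 1.07 and 0.922 FPKM in shZNF148. All shZNF148 values were lower, with a log2 fold change of -0.41 (95% interval -0.76 to -0.06, adjusted p = 0.107).

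The arginine and lysine carriers SLC7A1 (CAT1) and SLC7A2 (CAT2) need no heavy chain. SLC7A1 had a mean of 41.0 ± 2.86 FPKM in shCtr and 37.3 ± 3.74 FPKM in shZNF148 (log2 fold change -0.14, adjusted p = 0.340). SLC7A2 was far lower, at 2.74 to 3.51 FPKM in shCtr, and among the shZNF148 samples replicate 2 alone was below 1 FPKM, at 0.926 against 2.79 and 2.44 (log2 fold change -0.51, adjusted p = 0.212; without that sample -0.21, adjusted p = 0.282). The groups overlapped in both genes.

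Of the SLC43 family, SLC43A1 fell and the other members did not pass. SLC43A1 (LAT3), which lets large neutral amino acids run down their gradient without exchange, was at 5.68, 5.91 and 6.17 FPKM in shCtr and at 4.22, 4.12 and 3.35 FPKM in shZNF148. The groups were well apart. The shCtr mean of 5.92 ± 0.246 FPKM compared with 3.90 ± 0.477 FPKM, 65.9% of shCtr (log2 fold change -0.50, SE 0.10, 95% interval -0.75 to -0.26, adjusted p = 0.0301). SLC43A2 (LAT4), of the same function, had a log2 fold change of -0.23 (adjusted p = 0.310). SLC43A3 was the most abundant member, and is known as a carrier of purine bases more than of amino acids. It was at 152.5, 177.9 and 161.4 FPKM in shCtr and at 169.2, 133.5 and 153.9 FPKM in shZNF148. These ranges overlap, and the log2 fold change was -0.11 (95% interval -0.36 to 0.14, adjusted p = 0.488).

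The promoter of SLC43A1 is shown because this row moved against SLC7A5, which carries the same amino acids, with matches to CCCCNCCCC in capitals.
SLC43A1, chr11:57515683-57515952, minus strand: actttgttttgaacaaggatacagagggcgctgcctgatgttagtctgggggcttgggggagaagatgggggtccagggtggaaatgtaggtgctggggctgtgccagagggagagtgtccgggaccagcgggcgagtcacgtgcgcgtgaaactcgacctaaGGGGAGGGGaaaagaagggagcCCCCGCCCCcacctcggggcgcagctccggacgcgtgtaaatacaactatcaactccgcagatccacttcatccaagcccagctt
It held 2 runs, as SLC7A5 did, so rows with this string lay on both sides of 0.

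In the SLC38 family 2 rows rose, SLC38A7 and SLC38A2, and 0 of 6 fell by the adjusted p. SLC38A7 (SNAT7), which exports glutamine and asparagine from lysosomes, was at 5.85, 6.08 and 5.83 FPKM in shCtr and at 9.81, 11.6 and 9.81 FPKM in shZNF148. The groups did not overlap, and the spread was wider within shZNF148 than within shCtr. The mean went from 5.92 ± 0.137 to 10.4 ± 1.02 FPKM, 1.76-fold, and the log2 fold change was 0.72 (SE 0.09, 95% interval 0.50 to 0.93, adjusted p = 0.0111). Without shZNF148 replicate 2, its highest sample, it was 0.64 (adjusted p = 0.00939), but the call was lost without shCtr replicate 1 (0.71, adjusted p = 0.0745) or shCtr replicate 3 (0.71, adjusted p = 0.0725). The promoter of this row, the only one called, held 1 GC-box and neither of the other strings, and no letters are in capitals.
SLC38A7, chr16:58684751-58685020, minus strand: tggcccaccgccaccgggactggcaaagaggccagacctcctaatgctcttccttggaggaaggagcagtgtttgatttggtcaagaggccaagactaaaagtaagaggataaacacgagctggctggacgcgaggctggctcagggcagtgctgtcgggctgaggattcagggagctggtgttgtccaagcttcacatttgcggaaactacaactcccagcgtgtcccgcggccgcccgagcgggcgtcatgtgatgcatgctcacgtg
A GC-box was present in 16 of the 20 members (80.0%) and in 57.7% of all promoter windows, which were not filtered for expression. All 7 members past the adjusted p held one, and so did members that did not pass, among them SLC1A5 and SLC7A1.

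SLC38A2 (SNAT2), the sodium-coupled carrier that cells make when amino acids run short, was at 29.3, 31.4 and 29.7 FPKM in shCtr and at 38.7, 49.8 and 37.8 FPKM in shZNF148. Replicate 2 was the highest and the groups did not overlap. Means were 30.2 ± 1.14 and 42.1 ± 6.69 FPKM, 1.396-fold (log2 fold change 0.46, SE 0.11, 95% interval 0.19 to 0.73, adjusted p = 0.0439). Without shZNF148 replicate 2 the log2 fold change was 0.33 (adjusted p = 0.0226).

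SLC38A1 (SNAT1), a carrier of similar function, was at 24.4, 25.95 and 25.4 FPKM in shCtr and at 17.8, 7.81 and 18.4 FPKM in shZNF148. All shZNF148 values were lower, and replicate 2 was far below the other two. With that spread the log2 fold change of -0.83 (SE 0.29, 95% interval -1.53 to -0.13) did not pass (adjusted p = 0.102). Without shZNF148 replicate 2 it was -0.46 with an SE of 0.06 and passed the adjusted p (0.0128) but not 1.5-fold, so this library decided the side of the adjusted p and SLC38A1 was called in neither fit. For each SLC38A1 FPKM there were 1.20, 1.21 and 1.17 SLC38A2 FPKM in shCtr and 2.17, 6.38 and 2.06 in shZNF148. The ratio was thus higher in every shZNF148 sample, and shZNF148 replicate 2 alone reached 6.38.

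Of the remaining SLC38 rows none passed. SLC38A9, the arginine sensor of the lysosome, had a log2 fold change of 0.21 (95% interval -0.08 to 0.50, adjusted p = 0.277). SLC38A10 had one of 0.29 with groups that did not overlap (adjusted p = 0.176), and one of 0.14 (adjusted p = 0.219) without shZNF148 replicate 2, its highest sample at 39.5 FPKM. SLC38A6 had one of -0.24 (adjusted p = 0.340). Below the filter, the neutral amino acid carrier SLC38A4 (SNAT4) was at 0.250, 0.287 and 0.0891 FPKM in shCtr and at 0.692, 2.66 and 1.09 FPKM in shZNF148. Every shZNF148 sample was higher and replicate 2 the highest again. With no filter, over 16993 rows, its log2 fold change was 0.96 (SE 0.28, 95% interval 0.29 to 1.63, adjusted p = 0.0879). Leaving out shZNF148 replicate 2 as well, a fit chosen after seeing the data, gave 0.64 (SE 0.12, adjusted p = 0.0606).

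**Figure D3:**
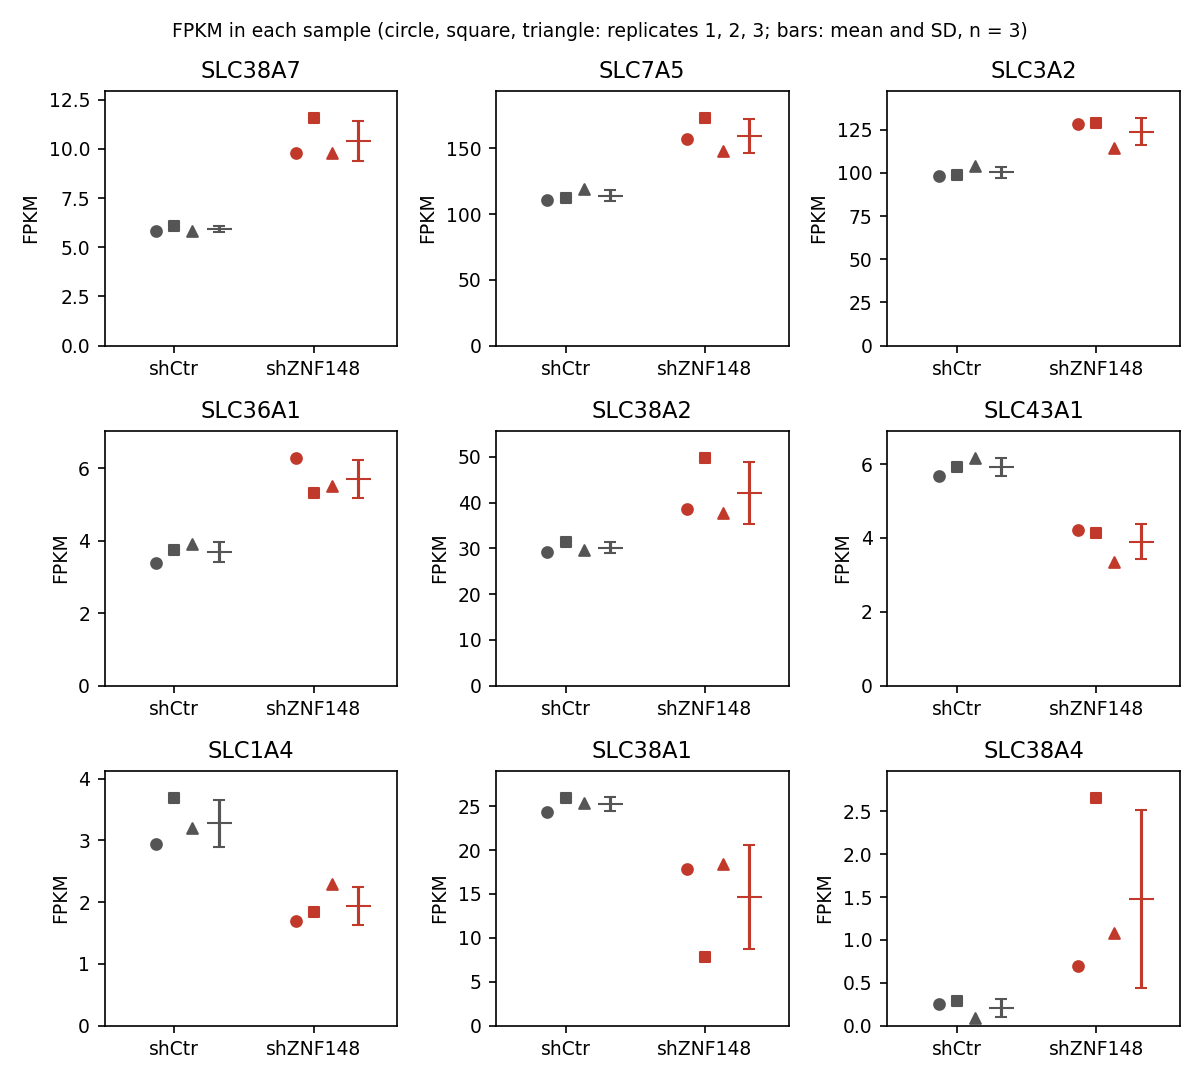
FPKM in each sample of the 7 transporter rows past an adjusted p of 0.05, of SLC38A1 and of SLC38A4, on axes that start at 0, with the mean and SD of 3 samples beside the points. The shCtr and shZNF148 points do not overlap in any panel, and shZNF148 replicate 2 (red square) is far from the other shZNF148 samples in SLC38A1 (7.81 FPKM) and SLC38A4 (2.66 FPKM).

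The proton-coupled carrier SLC36A1 (PAT1), found on lysosomes and on the cell surface, was at 3.40, 3.75 and 3.92 FPKM in shCtr and at 6.29, 5.31 and 5.51 FPKM in shZNF148. The groups were apart, with replicate 1 the highest. The mean went from 3.69 ± 0.266 to 5.70 ± 0.519 FPKM, a 1.55-fold ratio of means, while on the log2(FPKM + 1) scale the change was 0.51 (SE 0.10, 95% interval 0.28 to 0.75, adjusted p = 0.0259), under the 1.5-fold line. SLC36A4 (PAT4), of the same family, had a log2 fold change of -0.09 (95% interval -0.40 to 0.21, adjusted p = 0.638).

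In the SLC1 family, which holds carriers of glutamate and of small neutral amino acids, no tested row rose and SLC1A4 fell. SLC1A4 (ASCT1), an exchanger of alanine, serine and cysteine, was at 2.94, 3.69 and 3.20 FPKM in shCtr and at 1.69, 1.84 and 2.29 FPKM in shZNF148. The groups did not overlap. The mean went from 3.28 ± 0.382 to 1.94 ± 0.314 FPKM, 59.2% of shCtr (log2 fold change -0.54, SE 0.13, 95% interval -0.85 to -0.24, adjusted p = 0.0402). Without shZNF148 replicate 2 it was -0.52 and no longer passed (adjusted p = 0.0623). Its promoter is shown because it was the only one among the 7 with a match to TGATGNAAN, printed in capitals on the opposite strand and reaching across the start site.
SLC1A4, chr2:64989149-64989418, plus strand: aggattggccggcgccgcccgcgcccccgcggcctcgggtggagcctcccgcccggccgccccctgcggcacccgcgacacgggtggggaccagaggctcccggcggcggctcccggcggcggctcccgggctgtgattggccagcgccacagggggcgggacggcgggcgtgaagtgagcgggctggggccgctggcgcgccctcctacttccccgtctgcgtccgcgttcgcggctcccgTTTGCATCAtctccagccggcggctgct
That string was in 2 of the 20 members, SLC1A4 and SLC7A1, and in 2.5% of all promoter windows.

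SLC1A5 (ASCT2), the related glutamine exchanger, was close to SLC3A2 in level. It was at 123.3, 115.7 and 116.0 FPKM in shCtr and at 123.2, 107.4 and 124.4 FPKM in shZNF148. The ranges overlap and both means were 118.3 FPKM (SD 4.31 and 9.47), with a 95% interval of the log2 fold change from -0.18 to 0.18 (adjusted p = 0.987). The glutamate carrier SLC1A1 (EAAT3) was at 2.47, 2.33 and 2.53 FPKM in shCtr and at 1.85, 1.14 and 1.89 FPKM in shZNF148. Its shZNF148 values were all lower, most of all in replicate 2 (log2 fold change -0.41, 95% interval -0.76 to -0.05, adjusted p = 0.111). Without that sample it was -0.26 (adjusted p = 0.129). SLC1A3 (EAAT1), another glutamate carrier, differed by -0.06 on the log2 scale (adjusted p = 0.688).

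The 3 expressed SLC6 rows carry taurine, glycine and creatine, and none passed. SLC6A6, the taurine carrier and the fifth most abundant member, was at 48.2, 43.2 and 44.03 FPKM in shCtr and at 47.8, 52.7 and 48.3 FPKM in shZNF148. These overlap (log2 fold change 0.13, 95% interval -0.04 to 0.30, adjusted p = 0.238). SLC6A9, the glycine carrier GlyT1, had groups that did not overlap and a log2 fold change of 0.20 (adjusted p = 0.203). Creatine enters through SLC6A8, which was at 2.50, 3.26 and 3.43 FPKM in shCtr and at 2.09, 2.49 and 2.01 FPKM in shZNF148. The highest shZNF148 value was just under the lowest shCtr value (log2 fold change -0.34, adjusted p = 0.124). SLC6A6 and SLC6A9 overlap genes on the opposite strand, GRIP2 by 243 bases and CCDC24 by 148 bases in the exon pair that overlaps most. Reads there cannot be told apart either. SLC7A5 (116 bases), SLC7A6 (145), SLC38A10 (417) and SLC1A5 (780) also overlap opposite-strand genes that have no row here. On the same strand, SLC38A6 (78 bases) and SLC43A3 (179) overlap such genes too.

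Whether the 7 rows passed depended on which samples were kept. Each fit with a sample left out has fewer samples, and calls over all rows also fell in number, as given at the end. Without shCtr replicate 1 none of the 7 had an adjusted p under 0.05, with values from 0.0745 for SLC38A7 to 0.147 for SLC38A2, and without shCtr replicate 3 they ran from 0.0725 for SLC38A7 to 0.138 for SLC38A2. Without shCtr replicate 2 (0.0458) or shZNF148 replicate 1 (0.0421) only SLC38A7 passed. Leaving out shZNF148 replicate 3 left SLC38A7, SLC7A5, SLC3A2 and SLC1A4 below 0.05 and put SLC36A1, SLC38A2 and SLC43A1 at 0.0513, 0.0521 and 0.0521. Over these 6 fits the log2 fold change kept its sign in all 7 rows. It lay between 0.64 and 0.75 for SLC38A7 and between 0.42 and 0.53 for SLC7A5, and it moved most for SLC38A2, from 0.33 without shZNF148 replicate 2 to 0.53 without shZNF148 replicate 3. The pseudocount decided which low rows were past 1.5-fold, since with 0.1 FPKM in place of 1 FPKM SLC36A1 (0.61), SLC43A1 (-0.60) and SLC1A4 (-0.73) were called too, while with 5 FPKM SLC38A7 (0.49) was not.

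**Figure D4:**
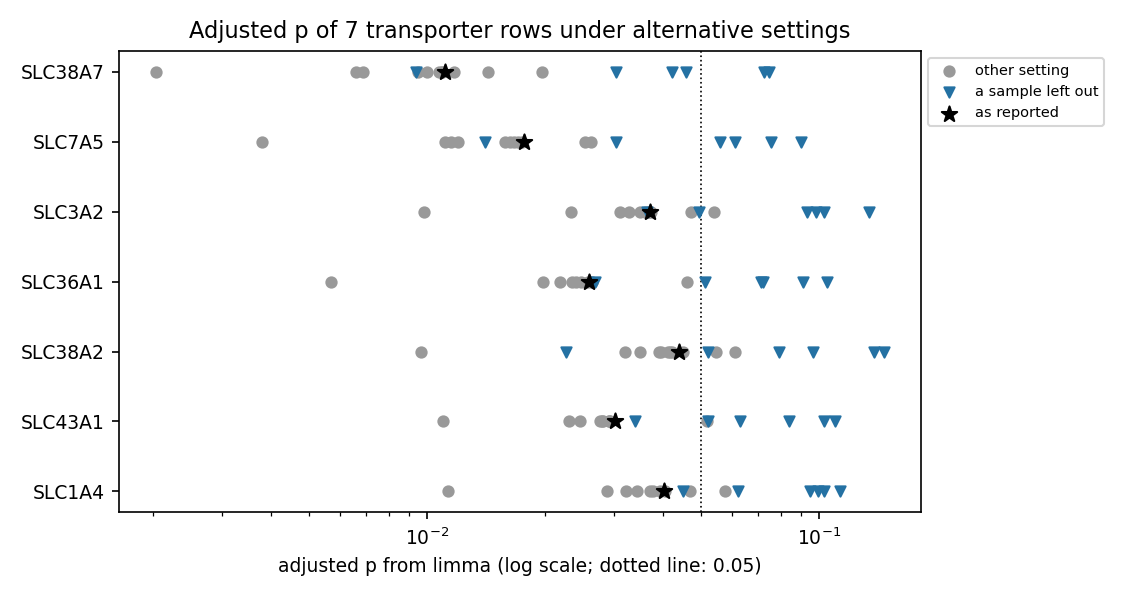
Adjusted p from limma, on a log axis, of the 7 transporter rows past 0.05, as reported (star), with 1 sample left out (blue triangles) and under other settings of the filter, pseudocount, scaling and variance model (grey). The fit with the replicate number as a term, in which only SLC38A7 stayed under 0.05, is not drawn. The dotted line is 0.05. All 7 rows have triangles to its right, and SLC38A7 has the fewest, at 0.0725 and 0.0745.

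Genes that make, break down or sense amino acids were set beside the carriers. Of 42 genes of amino acid synthesis and breakdown, 32 were tested and 9 had a log2 fold change above 0 (median -0.14). Of the 32, 3 were called lower, where 3.66% of all rows were, and 5, those 3 included, fell by the adjusted p, where 8.13% of all rows did. Called lower were ASS1 (-1.77, adjusted p = 0.0172), which joins citrulline and aspartate on the way to arginine, BCKDHA (-0.86, 0.0133), a subunit of the complex that breaks down branched-chain amino acids, and GLUL (-0.80, 0.0198), glutamine synthetase. BCKDHA had another tested row, with a lower mean (6.17 against 13.7 FPKM), that was at -0.05 (adjusted p = 0.887, limma) and was not counted in this list. By the adjusted p alone ASNS, which makes asparagine (-0.53, 0.0178), and PYCR1, which makes proline (-0.40, 0.0120), also fell. ASS1 was at 14.5, 11.97 and 12.1 FPKM in shCtr and at 3.76, 1.59 and 4.40 FPKM in shZNF148. Its log2 fold change was larger in size than that of any of the 24 tested transporters. Without shCtr replicate 1, or without shCtr replicate 3, 0 genes of this list were called.

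Of 39 genes of amino acid sensing by mTORC1, 34 were tested and 0 were called by limma, while 1 rose and 2 fell by the adjusted p alone and 4.0 were higher and 4.0 lower at an unadjusted p under 0.05 (median log2 fold change 0.09). Over all rows tested the adjusted p alone gave 5.46% higher and 8.13% lower. RRAGD, a Rag GTPase, was at -0.55 (adjusted p = 0.0264), WDR59 of the GATOR2 complex at -0.35 (0.0388) and ITFG2 of the KICSTOR complex at 0.51 (0.0310). ATF4 and the eIF2alpha kinases raise many carrier genes when amino acids are scarce. Their list of 16 genes also held related genes, among them DDIT3, ATF3, PPP1R15A and PPP1R15B. Of these 16, 13 were tested and 4 were above 0 (median -0.18). Of the 13, 1 was called lower, against 3.66% of all rows, and 2, that gene included, fell by the adjusted p, against 8.13%. ATF3 was called lower (-0.62, adjusted p = 0.0441), PPP1R15B fell by the adjusted p alone (-0.34, 0.0405), and ATF4 itself, at -0.32, did not pass (0.0916). The kinases EIF2AK1, EIF2AK2, EIF2AK3 and EIF2AK4 did not pass either. With shZNF148 replicate 2 left out 1 gene of this list was called, and with any other one of the 6 samples left out 0 were. With no filter, a pseudocount of 5 FPKM or a filter of 5 FPKM, under which ATF3 was not tested, 0 were called as well. Among 26 amino acid carriers of other families, 14 were tested and 0 were called by limma (3.0 higher and 3.0 lower at an unadjusted p under 0.05), and the mitochondrial carriers SLC25A22 (0.40, adjusted p = 0.0481) and SLC25A44 (0.50, 0.0445) rose, beside 5.46% of all rows (median log2 fold change 0.14). Without shZNF148 replicate 3, 1 gene of mTORC1 sensing was called higher and 1 lower, and 1 carrier of other families was called higher.

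**Figure D5:**
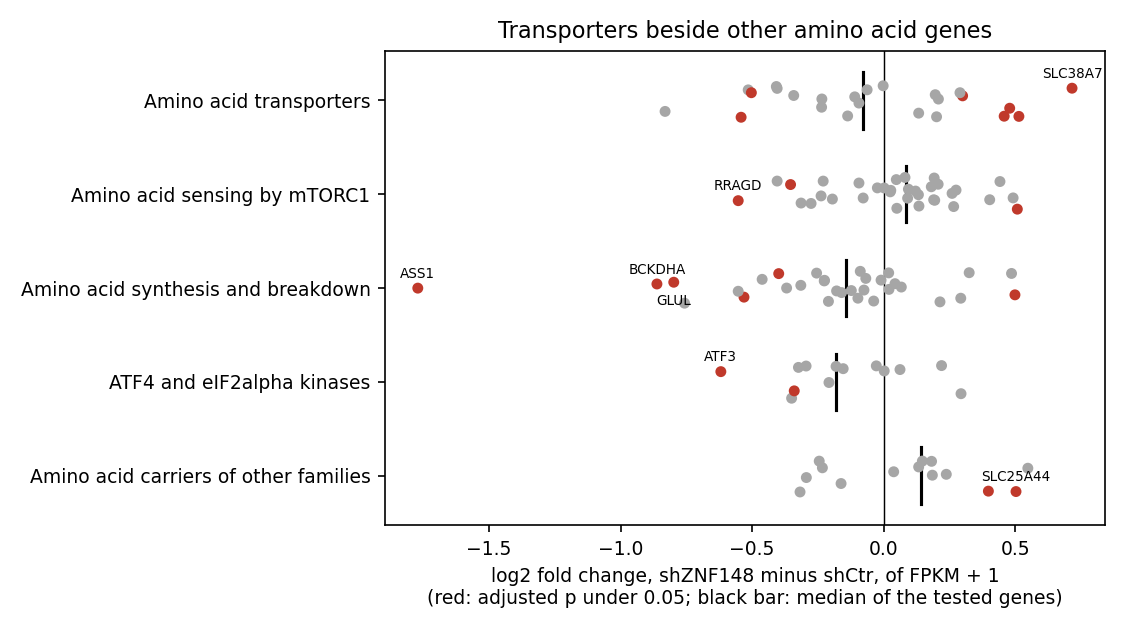
Log2 fold change of FPKM + 1, shZNF148 minus shCtr, of each tested gene in 5 groups of amino acid genes, with adjusted p under 0.05 in red and the median of each group as a black bar. The medians run from -0.18 for ATF4, the eIF2alpha kinases and related genes to 0.14 for carriers of other families, with -0.08 for the 24 transporters, and ASS1 at -1.77 lies farthest from 0.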

How the data were processed

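Total RNA of 6 samples, 3 shCtr and 3 shZNF148, was sequenced, and groups were taken from the sample titles. The authors deposited 1 table of FPKM values per gene, scaled across samples. The submitters' processing notes list bcl2fastq 2.17.1.14, TopHat2 2.0.14, Cufflinks 2.2.1 and Cuffnorm 2.2.1 with builds hg18 and hg19, while the study's methods name Salmon and GRCh38, so the build behind the table is not settled and no coordinates were taken for its rows. All 6 columns were matched to a sample, and 0 were left over. Gene values were used as deposited: FPKM hold no read numbers, so a count model could not be fitted, and intervals cover only the spread between samples.

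Rows averaging 1 FPKM or more were tested on log2(FPKM + 1) with limma 3.58.1 in R 4.3.3 (lmFit, eBayes with a mean-variance trend, two-sided, Benjamini-Hochberg over all rows tested), after a check on simulated data. Every tested transporter is named. Those called, past the adjusted p, with groups apart and over 1.25-fold, or among the 5 highest are given in full, and other lists name the genes called and those past the adjusted p, apart from items that are not reported here. SLC38A4 is named because it reached 1 FPKM in a sample. The members and lists were chosen with earlier results of these data known. List genes were matched by symbol or RefSeq synonym to rows that name 1 gene alone, which left out those listed jointly with another gene (SEH1L, AMT, TDH, ATF5, TRIB3, SLC25A15, ERBB2 and APOA1). Where a list gene had more than 1 such row, the row with the highest mean was taken. The 18 alternatives changed the filter, pseudocount, scaling, variance model, sample weights, duplicate rows, rows at 0 and the replicate block, and left out each of the 6 samples. The order of replicate numbers was checked for pairing: deviations from the group means correlated at 0.001, -0.088 and 0.03 for samples of the same number, so the numbers were not taken as pairs.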

Additional observations from a re-analysis of the deposited data

How the results depend on the processing

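Each result was recomputed under 18 alternatives. Over the 24 transporter rows, 369 of the recomputed values kept their direction and their side of the threshold, 41 lost and 4 gained an adjusted p under 0.05, and 8 changed sign, all of them in rows near 0. The rows that changed sign were SLC1A3 (0.033 with sample weights, and -0.12 to 0.014 with 1 sample left out), SLC1A5 (0.056 after quantile normalization, 0.048 with sample weights, and -0.04 to 0.065 with 1 sample left out), SLC36A4 (-0.18 to 0.025 with 1 sample left out) and SLC43A3 (0.015 with sample weights). The 216 rows called higher and 431 called lower became 76 and 204 with a pseudocount of 5 FPKM, and ranged from 3 to 209 and from 19 to 393 with 1 sample left out, lowest without shCtr replicate 1 (3 and 26) or shCtr replicate 3 (3 and 19). Of the transporters, 2 were called higher and 2 lower with a pseudocount of 0.1 FPKM, 0 were called higher with one of 5 FPKM, and with 1 sample left out 0 to 1 were called higher and 0 to 1 lower. By the adjusted p alone, the 5 that rose became 3 without the variance trend, and the 2 that fell became 0 with no filter, 0 with a filter of 5 FPKM, under which SLC43A1, SLC1A4 and SLC36A1 were no longer tested, and 4 with sample weights, which gave shZNF148 replicate 2 a weight of 0.26. With 1 sample left out these counts were 0 to 5 and 0 to 2. ZNF148 ranged from -1.739 to -1.45 with 1 sample left out, with an adjusted p of 0.0673 without shCtr replicate 1 and 0.0653 without shCtr replicate 3, and a filter of 5 FPKM removed it. With the replicate block, a fit with the replicate number as a term, 99 rows were called higher and 216 lower, and of the transporters 1 rose (SLC38A7, adjusted p = 0.0432) and 0 fell by the adjusted p alone, and 0 genes of the ATF4 and eIF2alpha kinase list were called. The median log2 fold change of all rows tested was 0.0061 as reported, and its highest value over the alternatives was 0.0217, after quantile normalization. Except where stated, the cause of these shifts was not tested. Depth limits the low rows most, and without read numbers their counting error is unknown.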
